A study of Mus musculus with 4 samples.

Results

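The motile cilium and ependymal genes described here are 62 protein-coding genes chosen by symbol: names made of Cfap, Dnah, Dnai, Drc or Rsph and a digit, together with Foxj1, Rfx2, Rfx3, Pifo, Ccdc153, Tmem212, Dynlrb2 and Ak7, with at least 10 counts in total over the 4 libraries. They are part of a table of 53379 genes from RNA sequencing of cultured mouse cortical astrocytes. Of 65 protein-coding genes with such symbols, 3 fell below the minimum: Tmem212, an ependymal membrane protein gene, had 0 counts in every library, and the dynein heavy chain genes Dnah12 and Dnah3 had 9 and 3 counts in all, each in a single WT library. No symbol made of Dnai and a digit was found in the annotation used. The 2 groups were Npas3-/- astrocytes (2 samples) and WT astrocytes (2 samples), both of the C57BL/6 strain. Both were prepared from postnatal day 0 cortex, grown in serum, freed of loosely attached cells by daily shaking, replated, and taken at day 14 in vitro. The labels name no promoter, Cre line or exon for the Npas3 allele. They leave unstated whether a genotype's samples are separate animals or separate cultures, and the p-values therefore measure only sample-to-sample spread that could be technical.

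Motile cilia are built on a ring of microtubule doublets around a central pair. Outer and inner dynein arms slide the doublets against each other, the nexin-dynein regulatory complex links neighbouring doublets, and radial spokes pass signals between the central pair and the arms. In the brain the multiciliated ependymal cells that line the ventricles carry them. The forkhead factor FOXJ1 and the RFX factors switch on many of the genes of the axoneme, and RFX factors also act on genes of primary cilia, the single immotile cilia that astrocytes carry.

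The libraries held between 85897778 and 86932708 counts in Npas3-/- and between 82965565 and 85688472 in WT. Npas3, the targeted gene, had 2055 and 1386 counts in Npas3-/- libraries against 5129 and 8739 in WT libraries, a log2 fold change of -1.82 (SE 0.33, edgeR adjusted p = 0.0181). With the correction for GC content and length described next it stood at -0.57 and did not pass (edgeR adjusted p = 0.154). Counts over the whole gene do not show whether an exon was deleted. The count-weighted GC content of the transcripts was 53.2% and 53.6% in Npas3-/- libraries against 51.5% and 50.2% in WT libraries, so the composition of the libraries moved with genotype. For that reason the fold changes of the members below are also given from a second fit, here called the corrected fit, that removes a smooth trend with GC content and length in each library. A real genotype difference that ran along GC content or length would be taken out with it.

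Most of these genes were present at low levels, with Foxj1 far above the others. Levels are given as CPM (counts scaled to a common TMM-adjusted library size) or, where genes are compared with each other, as CPM per kilobase of exon. The median level of the 62 genes was 0.392 and 0.458 CPM per kilobase in Npas3-/- libraries, against 0.459 and 0.736 in WT libraries. The medians over 16122 protein-coding genes with at least 10 counts were 2.68 and 2.48 in Npas3-/- libraries and 3.77 and 4.12 in WT libraries, so the ciliary genes lay lower in every library. Of the 62 genes, 59 and 57 had a count in Npas3-/- libraries, against all 62 in both WT libraries. Apart from Foxj1, the members took up 0.0561% (Wilson 95% interval 0.0556 to 0.0566) and 0.0556% (0.0552 to 0.0561) of all counts in Npas3-/- replicates 1 and 2. In WT replicates 1 and 2 they took up 0.0507% (0.0502 to 0.0512) and 0.0597% (0.0592 to 0.0602). These intervals cover counting error only, and the WT libraries lay on either side of the Npas3-/- libraries.

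**Figure D1:**
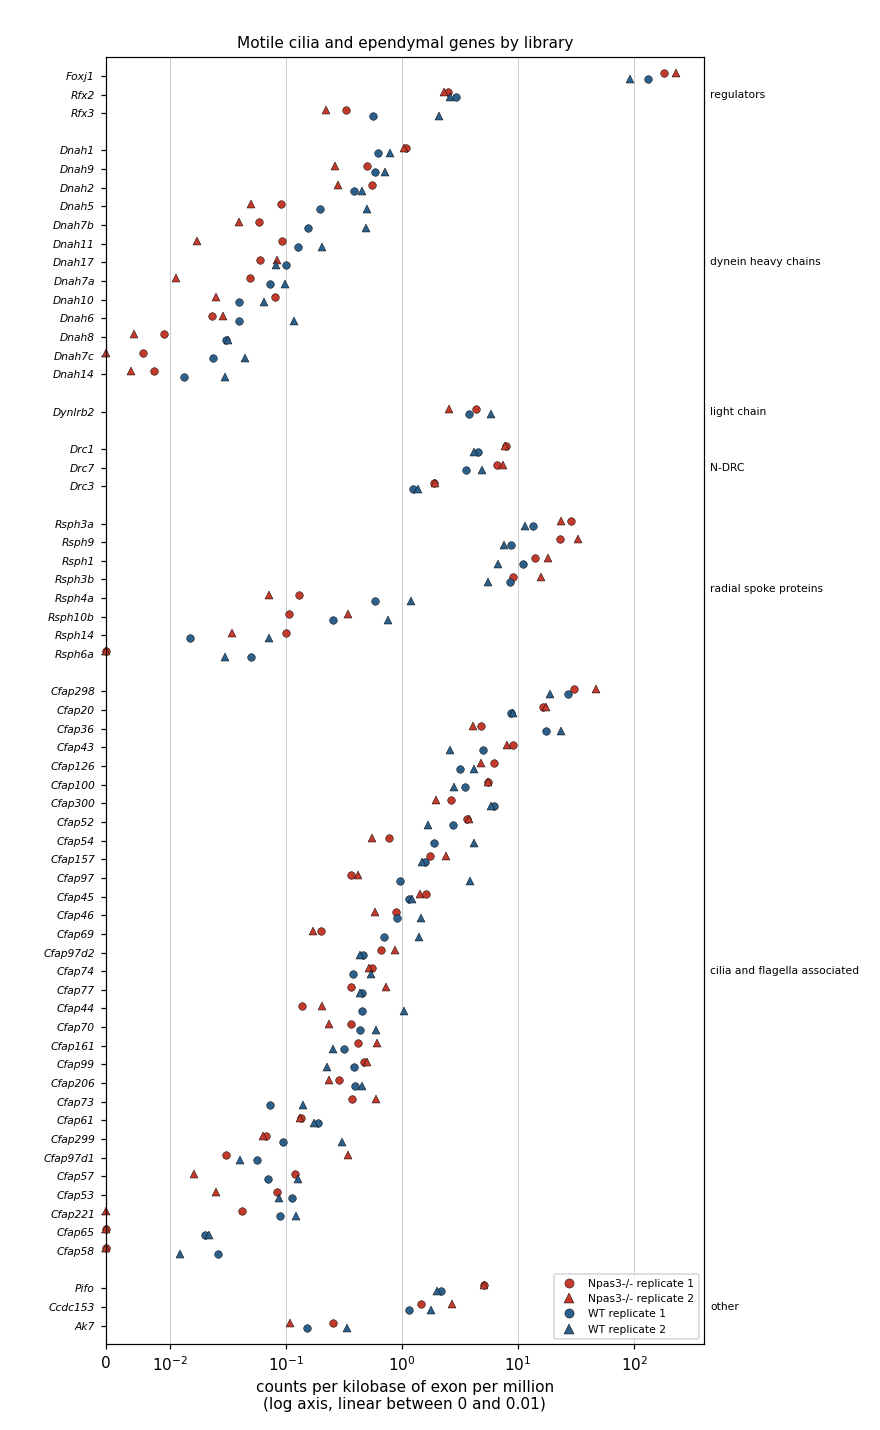
Level of each of the 62 genes in the 4 libraries, in CPM per kilobase of exon on a log axis that is linear below 0.01, grouped by role and sorted by mean level. Red points are Npas3-/- libraries and blue points WT libraries, circles replicate 1 and triangles replicate 2. Foxj1 stands at 91.8 to 230.4, and most other genes lie below 10.

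Across the 59 members that passed the filter on low counts, 5 were higher and 10 lower in Npas3-/- astrocytes at an adjusted p below 0.05 (edgeR's quasi-likelihood test, Benjamini-Hochberg adjustment over all 18838 tested genes). Rsph9, Rsph3a, Cfap20, Pifo and Drc1 rose. Cfap36, Cfap69, Rsph4a, Cfap54, Cfap300, Dnah7b, Cfap44, Cfap97, Dnah5 and Cfap65 fell. The members called higher were 8.47% of those tested, beside 11.6% of all tested genes, and those called lower 16.9%, beside 21.5% of all tested genes, so neither share exceeded the background. Together these were 15 members (25.4%), beside 33.1% of all tested genes. The genotypes did not overlap for 22 members higher and 26 lower in Npas3-/- (37.3% and 44.1% of the 59), beside 35.7% and 40.1% of all tested genes in each direction and 75.8% in either. The median log2 fold change of the tested members was -0.34, against -0.07 for all tested genes. With the correction 5 members passed (8.47%, beside 8.79% of all genes). Of these 4 were higher (Cfap43, Pifo, Cfap20 and Rsph9; 6.78%, beside 5.71%) and 1 was lower (Cfap36; 1.69%, beside 3.08%), and the medians were 0.04 for the members and 0.09 for all tested genes.

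Calls and medians changed with the library left out, for all tested genes as for the members. An edgeR fit on 3 libraries has fewer residual degrees of freedom than the 2 of the full fit. Its calls are therefore not directly comparable with those of the full fit. The median log2 fold change of the tested members was -0.25 without WT replicate 1, 0.08 without WT replicate 2 and -0.57 without Npas3-/- replicate 1. For all tested genes it was -0.10, -0.04 and -0.20 in the same order. Without Npas3-/- replicate 2 the median was -0.14 for the tested members and -0.17 for all tested genes. That edgeR fit cannot separate members from other genes, because nothing reached the threshold in it. Cfap36 and Rsph9 passed in each of the 3 uncorrected edgeR fits that kept Npas3-/- replicate 2 and left out another library. With the correction, Cfap36 passed without WT replicate 1 (edgeR adjusted p = 0.0316) and in no other fit that left out a library, and Rsph9 in none of them (0.0522 to 0.204). The corrected edgeR fits that left out either Npas3-/- library cannot separate members from other genes, because nothing reached the threshold in them. The median log2 fold change of tested members there was -0.03 without replicate 1 and 0.14 without replicate 2. For all tested genes it was 0.04 and 0.08.

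**Figure D2:**
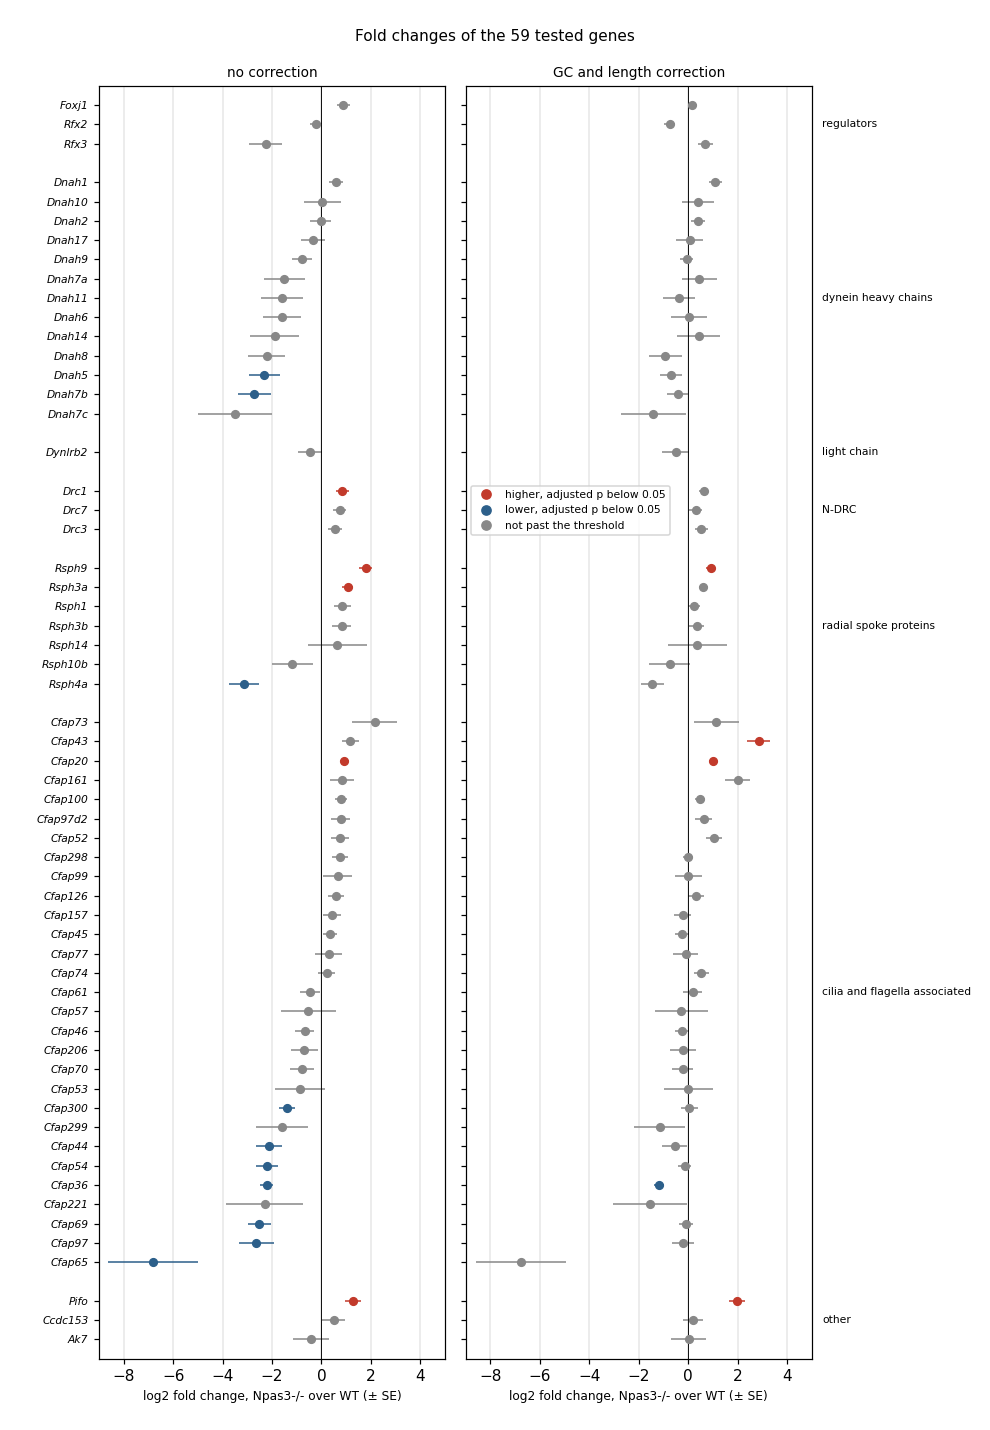
Log2 fold change (Npas3-/- over WT) with its standard error for the 59 tested genes, left without and right with the GC and length correction, grouped by role. Red marks genes higher and blue genes lower at an adjusted p below 0.05, and grey marks the others. Without the correction 5 genes are red and 10 blue, and with it 4 are red and 1 is blue. The position of Cfap65, which has no counts in Npas3-/-, depends on the prior count of the fit.

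Among the regulators, Foxj1 (ENSMUSG00000034227.7, mm10 chromosome 11, 116330704 to 116335399, minus strand) was abundant in both genotypes. It had 479 and 604 CPM in Npas3-/- libraries against 344 and 241 CPM in WT libraries. Both Npas3-/- libraries lay above both WT libraries, with a log2 fold change of 0.89 (SE 0.27) that missed the threshold (edgeR adjusted p = 0.0522). It passed by DESeq2 (adjusted p = 0.0095), by limma-voom (0.0443), and in edgeR with median-of-ratios factors (0.0464), with a mean of at least 1 CPM (0.0383) and without WT replicate 1 (0.0311). It did not pass without any 1 of the other libraries, and without WT replicate 2 it stood at 0.64 (edgeR adjusted p = 0.160). Corrected over all 4 libraries, the log2 fold change of Foxj1 was 0.17 (SE 0.17, edgeR adjusted p = 0.533). Ranked by CPM per kilobase among 16122 protein-coding genes, Foxj1 stood at position 287 and 269 in Npas3-/- libraries and at 309 and 384 in WT libraries. Foxj1 alone gave 0.0456% (Wilson 95% interval 0.0452 to 0.0461) and 0.0542% (0.0537 to 0.0547) of all counts in Npas3-/- replicates 1 and 2, against 0.0368% (0.0364 to 0.0372) and 0.0263% (0.0260 to 0.0267) in WT replicates 1 and 2.

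The RFX genes were lower in level than Foxj1, and neither passed in edgeR. Rfx2, known for its role in ciliated cells and in spermatogenesis, had 18.3 and 16.7 CPM in Npas3-/- libraries against 21.4 and 18.8 CPM in WT libraries (log2 fold change -0.20, SE 0.24, edgeR adjusted p = 0.543). Its corrected value was -0.75 (edgeR adjusted p = 0.080). Rfx3, which acts on motile and primary cilia of the brain, had 3.62 and 2.45 CPM in Npas3-/- libraries against 6.14 and 22.9 CPM in WT libraries. The groups did not overlap, but WT replicate 2 was 3.73 times WT replicate 1. The log2 fold change of Rfx3 was -2.26 (SE 0.67, edgeR adjusted p = 0.0519). DESeq2 called it lower (adjusted p = 0.0017), as did edgeR with a mean of at least 1 CPM (0.0418) and without WT replicate 1 (0.0055), and without WT replicate 2 it stood at -1.03 (0.154). In the corrected fit it turned to 0.70 (SE 0.31, edgeR adjusted p = 0.201). With 40.2% GC the Rfx3 transcript was the least GC-rich of the 59, and Foxj1, with 61.4%, the most GC-rich.

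RFX factors bind the X-box, whose core is GTTGCC, and forkhead factors bind TGTTTAC. Both were searched on both strands in the RefSeq promoter windows of build GRCm38.p6 (250 bases before to 50 after each start), which were found for 51 of the 62 members. The RFX core (GTTGCC or its reverse complement GGCAAC) was in the promoters of 21 of the 51 members (41.2%), beside 14.1% of 27025 genes with a window. The forkhead core (TGTTTAC or GTAAACA) was in those of 4 (7.84%), beside 4.05% of genes. The RFX core occurred on both sides of the genotype difference: in 3 of the 5 members called higher, 3 of the 6 called lower that had a window, and 14 of the 37 not called; the remaining match was in a member that was not tested. The 6 called members with an RFX core are shown, because they moved in opposite directions and share it. Sequences run 5' to 3' on the gene's strand with the matches in capitals, and in Cfap20 the GTAAACA upstream of the RFX core is the forkhead match. The window of Pifo is that of its downstream RefSeq start; the window at its upstream start, where the annotated gene begins, holds neither core. Cfap20, Pifo and Drc1 rose, and Cfap300, Cfap44 and Dnah7b fell, without the correction.
Cfap20 (chr8:95434820-95435119, minus strand): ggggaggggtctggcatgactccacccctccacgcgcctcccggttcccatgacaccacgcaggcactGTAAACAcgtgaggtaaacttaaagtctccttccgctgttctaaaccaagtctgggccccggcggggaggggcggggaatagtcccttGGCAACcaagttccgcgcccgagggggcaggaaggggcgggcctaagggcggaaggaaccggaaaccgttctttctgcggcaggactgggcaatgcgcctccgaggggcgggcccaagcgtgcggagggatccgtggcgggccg
Pifo (chr3:106001448-106001747, minus strand): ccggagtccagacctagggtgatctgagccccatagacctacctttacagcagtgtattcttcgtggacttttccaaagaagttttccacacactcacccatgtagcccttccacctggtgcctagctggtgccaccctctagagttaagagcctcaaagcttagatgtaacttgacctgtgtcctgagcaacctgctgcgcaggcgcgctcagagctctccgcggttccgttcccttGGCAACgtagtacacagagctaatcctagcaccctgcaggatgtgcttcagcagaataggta
Drc1 (chr5:30281143-30281442, plus strand): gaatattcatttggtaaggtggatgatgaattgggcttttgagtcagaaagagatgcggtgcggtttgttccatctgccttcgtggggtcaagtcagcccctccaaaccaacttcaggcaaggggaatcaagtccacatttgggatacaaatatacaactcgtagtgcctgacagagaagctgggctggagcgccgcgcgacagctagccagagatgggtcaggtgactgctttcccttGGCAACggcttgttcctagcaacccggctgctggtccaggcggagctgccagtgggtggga
Cfap300 (chr9:8042826-8043125, minus strand): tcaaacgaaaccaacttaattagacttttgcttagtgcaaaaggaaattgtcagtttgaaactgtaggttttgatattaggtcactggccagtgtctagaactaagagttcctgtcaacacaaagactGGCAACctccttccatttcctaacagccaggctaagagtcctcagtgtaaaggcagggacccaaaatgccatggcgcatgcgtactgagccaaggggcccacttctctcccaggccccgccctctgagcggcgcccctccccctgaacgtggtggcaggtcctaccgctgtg
Cfap44 (chr16:44394549-44394848, plus strand): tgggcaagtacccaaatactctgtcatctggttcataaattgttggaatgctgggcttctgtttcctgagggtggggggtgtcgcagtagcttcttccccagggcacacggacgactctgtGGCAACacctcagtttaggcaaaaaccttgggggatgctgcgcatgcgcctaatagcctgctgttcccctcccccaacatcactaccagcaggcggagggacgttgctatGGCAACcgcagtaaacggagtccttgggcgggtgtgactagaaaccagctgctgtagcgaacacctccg
Dnah7b (chr1:46066603-46066902, plus strand): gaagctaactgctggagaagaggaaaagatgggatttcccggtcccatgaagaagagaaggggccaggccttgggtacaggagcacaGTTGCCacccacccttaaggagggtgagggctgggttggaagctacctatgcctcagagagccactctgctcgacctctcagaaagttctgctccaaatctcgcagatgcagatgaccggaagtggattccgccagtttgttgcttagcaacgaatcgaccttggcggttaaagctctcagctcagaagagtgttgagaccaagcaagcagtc
Counted from the start, the first base of the RFX match (GGCAAC) was at -94 in Cfap20, -12 in Pifo and -11 in Drc1. It was at -122 in Cfap300 and at -129 and -19 in Cfap44, and in Dnah7b, as GTTGCC, at -163. The matches do not overlap each other, and a match describes these letters only.

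The dynein heavy chains, the motors of the arms, were the least abundant group. Their median level was 0.0599 and 0.0284 CPM per kilobase in Npas3-/- libraries, against 0.0992 and 0.117 in WT libraries. Of 13 members, all tested, 0 rose and 2 fell, beside 11.6% and 21.5% of all tested genes. The levels of 9 were lower in both Npas3-/- libraries than in both WT libraries, beside 40.1% of all tested genes. The median log2 fold change was -1.59, and 0.04 in the corrected fit, where no heavy chain passed (edgeR; 1 higher and 0 lower at an unadjusted p under 0.05). DESeq2 called 0 higher and 2 lower, and limma-voom 0 of 13 (0 higher and 4 lower at an unadjusted p under 0.05). Over all 18838 tested genes, 5774 had an unadjusted p under 0.05 in the corrected fit and 8986 by limma-voom, in either direction.

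Dnah5, an outer arm heavy chain whose loss causes primary ciliary dyskinesia and hydrocephalus in mice, had 1.41 and 0.779 CPM in Npas3-/- libraries against 3.07 and 7.81 CPM in WT libraries. Its log2 fold change was -2.31 (SE 0.62, edgeR adjusted p = 0.0406), and -0.70 in the corrected fit (adjusted p = 0.328). The inner arm gene Dnah7b had 1.17 and 0.779 CPM in Npas3-/- libraries against 3.09 and 9.74 CPM in WT libraries (log2 fold change -2.72, SE 0.66, edgeR adjusted p = 0.0331). Corrected, Dnah7b stood at -0.42 (adjusted p = 0.551). Without WT replicate 2 they stood at -1.50 (Dnah5) and -1.67 (Dnah7b), and neither passed in edgeR or DESeq2. With either Npas3-/- library left out, neither passed in edgeR. In DESeq2 Dnah7b passed in both of these cases, and Dnah5 only without Npas3-/- replicate 1. For both genes WT replicate 2 was the highest library, at 2.54 times WT replicate 1 for Dnah5 and 3.16 times for Dnah7b. Dnah7c had 6 and 0 counts in Npas3-/- libraries against 26 and 52 in WT libraries, and its log2 fold change of -3.48 (SE 1.5) did not pass (edgeR adjusted p = 0.123; -1.41 in the corrected fit). Dnah7b and Dnah7c are near copies of Dnah7a: 40.3% to 48.5% of the 50-base stretches of each of the 3 transcripts were found in another, so the split of their counts is uncertain.

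The heavy chains with the highest levels per kilobase did not pass. Dnah1, of an inner arm, had 1.08 and 1.04 CPM per kilobase in Npas3-/- libraries against 0.624 and 0.783 in WT libraries. It lay higher in both Npas3-/- libraries and was the only heavy chain to do so, but did not pass (log2 fold change 0.59, SE 0.28, edgeR adjusted p = 0.157; 1.09 and adjusted p = 0.0570 in the corrected fit). Dnah9, of the outer arm, had 0.501 and 0.262 CPM per kilobase in Npas3-/- libraries against 0.586 and 0.718 in WT libraries (log2 fold change -0.77, SE 0.41, edgeR adjusted p = 0.191; -0.06 in the corrected fit). Dynlrb2, a roadblock-type dynein light chain gene, had 2.40 and 1.42 CPM in Npas3-/- libraries against 2.09 and 3.24 CPM in WT libraries. Its groups overlapped, and the log2 fold change of -0.48 (SE 0.49) did not pass (edgeR adjusted p = 0.469; -0.51 in the corrected fit).

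All 3 members of the nexin-dynein regulatory complex lay higher in both Npas3-/- libraries than in both WT libraries, and 1 of them, Drc1, passed the test. Of all tested genes 35.7% lay higher in this way and 11.6% were called higher. Drc1 (chromosome 5, 30281388 to 30366695, plus strand), a scaffold of the complex, had 21.1 and 20.8 CPM in Npas3-/- libraries against 12.2 and 11.1 CPM in WT libraries. Its log2 fold change was 0.85 (SE 0.25, edgeR adjusted p = 0.0486), and 0.62 in the corrected fit (adjusted p = 0.103). In edgeR it did not pass without any 1 of the 4 libraries, with or without the correction. Drc7 had 19.7 and 22.2 CPM in Npas3-/- libraries against 10.7 and 14.5 CPM in WT libraries, with a log2 fold change of 0.73 (SE 0.28, edgeR adjusted p = 0.0959; 0.30 in the corrected fit). Drc3 had a log2 fold change of 0.54 (edgeR adjusted p = 0.201; 0.53 in the corrected fit).

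Radial spoke genes differed in direction within the same substructure. Of 8 members 7 were tested: Rsph9 and Rsph3a rose and Rsph4a fell, beside 11.6% and 21.5% of all tested genes, and in the corrected fit Rsph9 alone passed. Rsph9 (ENSMUSG00000023966.8, chromosome 17, 46122035 to 46144216, minus strand), a spoke head protein, had 36.6 and 52.5 CPM in Npas3-/- libraries against 13.8 and 12.1 CPM in WT libraries. Both Npas3-/- libraries were far above both WT libraries. The log2 fold change was 1.78 (SE 0.28, edgeR adjusted p = 0.0151), and 0.91 in the corrected fit (SE 0.17, adjusted p = 0.0380). Rsph4a (chromosome 10, 33905111 to 33916021, plus strand), another spoke head protein, had 0.471 and 0.260 CPM in Npas3-/- libraries against 2.14 and 4.33 CPM in WT libraries, on 39 and 20 counts against 190 and 405. It was lower in both Npas3-/- libraries, with a log2 fold change of -3.14 (SE 0.62, edgeR adjusted p = 0.0217). Corrected, it stood at -1.45 (SE 0.47, edgeR adjusted p = 0.104). In uncorrected edgeR fits it did not pass without WT replicate 2 (log2 fold change -2.56) or without Npas3-/- replicate 2 (-2.77). Nor did it pass in the corrected fits that left out WT replicate 1 or WT replicate 2.

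Rsph3a, a spoke stalk protein, had 28.4 and 23.4 CPM per kilobase in Npas3-/- libraries against 13.3 and 11.5 in WT libraries, the highest mean level among the spoke genes. Its log2 fold change was 1.06 (SE 0.22, edgeR adjusted p = 0.0232), and 0.61 in the corrected fit (adjusted p = 0.0963). In uncorrected edgeR fits that left out a library it passed only without WT replicate 1. In DESeq2 it passed in all such fits but the one without Npas3-/- replicate 1. Rsph3b, its near copy, shares 73.4% of its 50-base stretches with Rsph3a and had a log2 fold change of 0.81 (edgeR adjusted p = 0.145; 0.35 in the corrected fit), so how reads were divided between them is uncertain. Rsph1, also of the spoke head, had 19.2 and 24.7 CPM in Npas3-/- libraries against 15.2 and 9.14 CPM in WT libraries and did not pass (edgeR adjusted p = 0.109; log2 fold change 0.85, and 0.23 in the corrected fit). Rsph6a, a spoke head gene known from sperm, had 0 counts in both Npas3-/- libraries against 11 and 7 in WT libraries and did not enter the test. Against a floor of 3 counts per library Rsph6a was at least 2.64-fold lower in Npas3-/-.

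The cilia and flagella associated proteins (Cfap) are named for where they are found and take part in different structures. Of 31 members 29 were tested, 1 rose and 7 fell, beside 11.6% and 21.5% of all tested genes, and their log2 fold changes had a median of -0.46. With the correction 2 rose and 1 fell, and the median was -0.10. The levels summed over the group were 296.99 and 312 CPM in Npas3-/- libraries, against 275 and 326 CPM in WT libraries, so that the summed level did not separate the genotypes.

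Cfap36 (ENSMUSG00000020462.14, chromosome 11, 29221532 to 29247409, minus strand), which encodes a binding partner of the ciliary GTPase ARL3, had the smallest p-value of all members. It had 13.2 and 11.1 CPM in Npas3-/- libraries against 47.6 and 64.9 CPM in WT libraries, on 1093 and 856 counts against 4226 and 6073. The groups were far apart, with a log2 fold change of -2.21 (SE 0.27, edgeR adjusted p = 0.0130). It was the only member called lower in the corrected fit too, at -1.18 (SE 0.19, adjusted p = 0.0292).

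Cfap20 (ENSMUSG00000031796.7, chromosome 8, 95420249 to 95434869, minus strand), a protein of the inner junction of the doublets, had 73.1 and 77.8 CPM in Npas3-/- libraries against 38.6 and 40.5 CPM in WT libraries. The libraries of a genotype lay close together, and the log2 fold change was 0.93 (SE 0.19, edgeR adjusted p = 0.0234). It changed little under the correction, at 1.02 (SE 0.16, adjusted p = 0.0269). In uncorrected edgeR fits it did not pass when any 1 library was left out. DESeq2 called it with either WT library left out but not with either Npas3-/- library left out. With the correction it passed in edgeR with either WT library left out. The corrected fits without either Npas3-/- library cannot decide, because nothing reached the threshold in them. Cfap43 (chromosome 19, 47736857 to 47919287, minus strand), whose loss disturbs cilia and causes hydrocephalus in mice, had 63.2 and 56.9 CPM in Npas3-/- libraries against 35.1 and 18.1 CPM in WT libraries. Both Npas3-/- libraries were higher, with a log2 fold change of 1.17 (SE 0.35) that just missed the threshold (edgeR adjusted p = 0.0530). It passed by DESeq2 (adjusted p = 0.0066) and by limma-voom (0.0418). In edgeR it passed with median-of-ratios factors (0.0480) and with a mean of at least 1 CPM (0.0399). It did not pass in edgeR with no filter on low counts (0.0884) or with a replicate block (0.0689). Of the uncorrected edgeR fits that left out a library, it passed only without WT replicate 1 (log2 fold change 1.71). Without WT replicate 2 it stood at 0.76, and without Npas3-/- replicates 1 and 2 in turn at 1.09 and 1.25. Its corrected value was 2.85 (SE 0.46, adjusted p = 0.0290), the largest rise of any member there.

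Cfap44, the partner of Cfap43 in the tether of an inner dynein arm, had 1.15 and 1.73 CPM in Npas3-/- libraries against 3.80 and 8.73 CPM in WT libraries. The log2 fold change of Cfap44 was -2.12 (SE 0.54, edgeR adjusted p = 0.0369), opposite in sign to that of Cfap43, and -0.55 in the corrected fit (adjusted p = 0.507). Without WT replicate 2 Cfap44 stood at -1.42 and did not pass in edgeR or DESeq2. With either Npas3-/- library left out, it did not pass in edgeR but passed in DESeq2. Their transcripts have a similar GC content, 45.1% for Cfap43 and 46.5% for Cfap44.

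Cfap54, a central pair protein whose mutation gives hydrocephalus in mice, had 11.2 and 8.0 CPM in Npas3-/- libraries against 27.3 and 60.8 CPM in WT libraries (log2 fold change -2.20, SE 0.45, edgeR adjusted p = 0.0235). Cfap69, known from sperm flagella and olfactory cilia, had 1.57 and 1.34 CPM in Npas3-/- libraries against 5.47 and 11.1 CPM in WT libraries (log2 fold change -2.51, SE 0.47, edgeR adjusted p = 0.0198). Cfap97 had 1.86 and 2.17 CPM in Npas3-/- libraries against 4.97 and 20.0 CPM in WT libraries (log2 fold change -2.63, SE 0.70, edgeR adjusted p = 0.0402). In fits without WT replicate 2 Cfap97 stood at -1.32 and did not pass in edgeR or DESeq2. With either Npas3-/- library left out, none of these genes passed in edgeR, while all of them passed in DESeq2. In all of these WT replicate 2 was the highest library, at between 2.02 (Cfap69) and 4.03 (Cfap97) times WT replicate 1. Corrected log2 fold changes were -0.14 for Cfap54, -0.11 for Cfap69 and -0.21 for Cfap97, with edgeR adjusted p between 0.747 and 0.838.

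Cfap300, which takes part in dynein arm assembly, had 4.18 and 3.13 CPM in Npas3-/- libraries against 9.87 and 9.25 CPM in WT libraries. Here the WT libraries were close, and the log2 fold change was -1.39 (SE 0.33, edgeR adjusted p = 0.0313), but in the corrected fit it was 0.05 (SE 0.35, adjusted p = 0.939). Of the uncorrected edgeR fits that left out a library Cfap300 passed only the one without WT replicate 1. In DESeq2 it passed only without WT replicate 2 or without Npas3-/- replicate 1. Cfap65, known from sperm flagella, had 0 counts in both Npas3-/- libraries against 14 and 16 in WT libraries, at least 4.37-fold lower against a floor of 3 counts per library. It passed narrowly (edgeR adjusted p = 0.0487; 0.0853 in the corrected fit), did not pass in the 3 fits without a library in which it was tested (0.157 to 0.262), and was the only member called lower with a GC content above 50%, at 53.7%. Cfap58 had 0 counts in both Npas3-/- libraries too, against 8 and 4 in WT libraries, and did not enter the test.

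Cfap298, needed for dynein arm assembly, was the most abundant member of the group per length, with 30.4 and 46.8 CPM per kilobase in Npas3-/- libraries against 27.0 and 18.9 in WT libraries. It did not pass (log2 fold change 0.75, SE 0.31, edgeR adjusted p = 0.113; 0.01 in the corrected fit), and 53.6% of its exon bases overlap other annotated genes, so its counts are uncertain. Cfap73 had the largest positive log2 fold change of the tested members without the correction, 2.15 (SE 0.91), on 28 and 42 counts in Npas3-/- libraries against 6 and 12 in WT libraries, and did not pass (edgeR adjusted p = 0.120; 1.14 in the corrected fit).

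Among the remaining genes 1 rose. Pifo (ENSMUSG00000010136.14, chromosome 3, 105996957 to 106014646, minus strand), which acts in the disassembly of primary cilia, had 5.70 and 5.73 CPM in Npas3-/- libraries against 2.43 and 2.26 CPM in WT libraries. The libraries of each genotype nearly coincided, and the log2 fold change was 1.28 (SE 0.34, edgeR adjusted p = 0.0396). Its corrected value was 1.98 (SE 0.32, adjusted p = 0.0290). Like Drc1 and Cfap20, Pifo did not pass in the uncorrected edgeR fits that left out a library. With the correction it passed only without WT replicate 1. Ccdc153, used as an ependymal marker in mouse brain, had 2.96 and 5.49 CPM in Npas3-/- libraries against 2.35 and 3.62 CPM in WT libraries. Ak7, a ciliary adenylate kinase gene, had 1.07 and 0.455 CPM in Npas3-/- libraries against 0.642 and 1.40 CPM in WT libraries. The groups overlapped for both genes, with edgeR adjusted p = 0.440 for Ccdc153 and 0.680 for Ak7, and corrected log2 fold changes of 0.20 for Ccdc153 and 0.01 for Ak7.

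**Figure D3:**
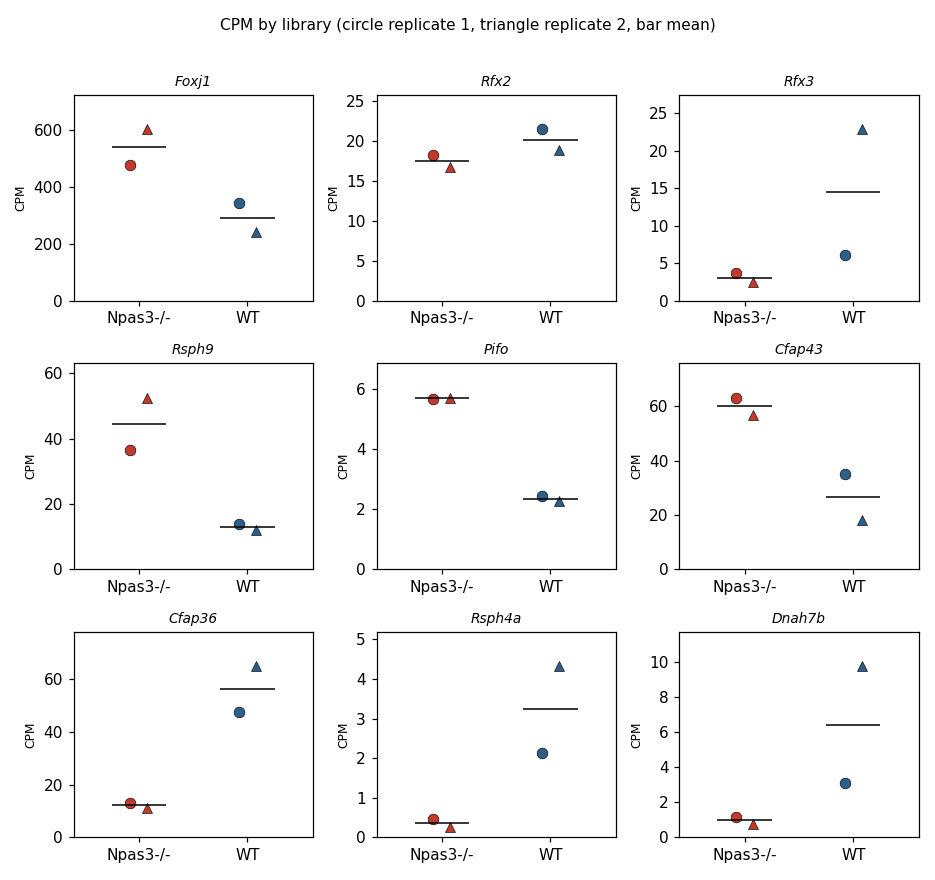
CPM of 9 of the genes in each library, Npas3-/- left and WT right, with circles for replicate 1, triangles for replicate 2 and a bar at the mean of the genotype; each vertical axis starts at 0. Rsph9, Pifo and Cfap43 are higher in both Npas3-/- libraries, Cfap36, Rsph4a and Dnah7b are lower, and for Rfx3 and Dnah7b WT replicate 2 stands far above WT replicate 1.

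The direction of change of the members followed the composition of their transcripts. Over the 59 tested members Spearman's rho between log2 fold change and GC content was 0.619, beside 0.669 over 18817 tested genes with a GC content. The genes share their libraries and are not independent replicates. Of 29 members with at least 50% GC, 22 had a positive log2 fold change, 4 were called higher and 1 lower, and the median was 0.59. Of 30 members below 50% GC, 5 had a positive log2 fold change, 1 was called higher and 9 lower, and the median was -1.60. The division at 50% was chosen after the values were seen. The corrected medians were 0.30 and -0.17 in the same order, and rho was 0.181 over the members and 0.0341 over all genes with a GC content. Of the 10 members called lower, 9 had more CPM in WT replicate 2 than in WT replicate 1, and for 7 the ratio was at least 2. The part of library composition in these differences cannot be told apart from that of genotype with 2 libraries each.

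**Figure D4:**
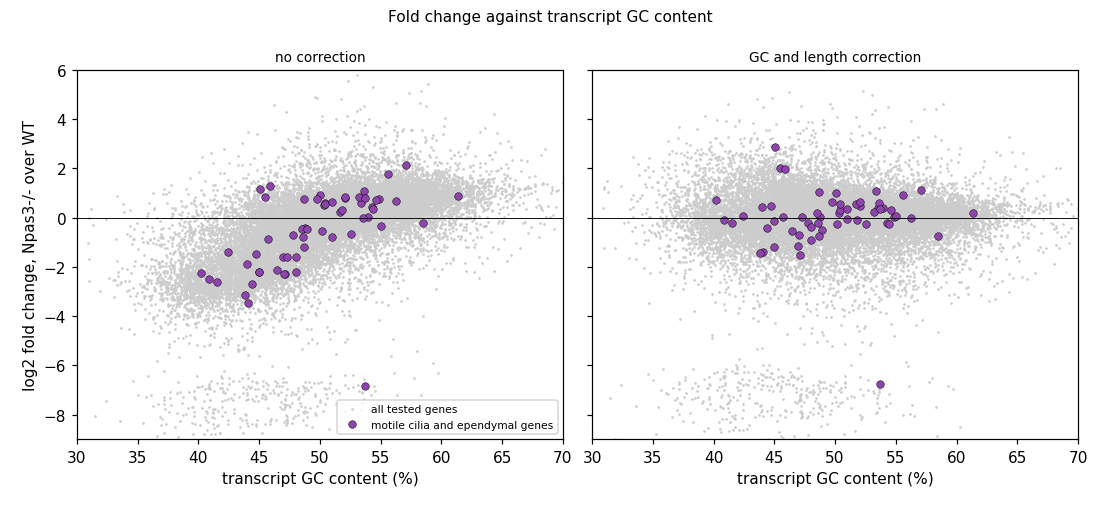
Log2 fold change (Npas3-/- over WT) against the GC content of the transcript in percent, left without and right with the GC and length correction, for all tested genes (grey) and the 59 members (purple). On the left the members rise with GC content (rho 0.619) as all genes do, and on the right the trend is weaker (rho 0.181).

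Other genes of the axoneme, outside the symbol rule, also went both ways. Of 67 such genes with an entry, 59 were tested, 8 rose and 10 fell (median log2 fold change -0.08), beside 11.6% and 21.5% of all tested genes. In the corrected fit 2 were called, both higher, beside 5.71% of all tested genes. These background shares apply to each list that follows, with 3.08% of all tested genes lower in the corrected fit. The dynein light chain gene Dnal1 fell (6.16 and 3.69 CPM in Npas3-/- libraries, against 22.5 and 47.8 CPM in WT libraries; log2 fold change -2.83, and -0.94 corrected), as did Capsl (log2 fold change -2.26, and -1.42 corrected), and the arm assembly gene Ccdc103 rose (14.1 and 14.8 CPM in Npas3-/- libraries, against 5.54 and 4.75 CPM in WT libraries; log2 fold change 1.49, and 1.18 corrected). Of these 3 genes Ccdc103 alone passed in the corrected fit. In the list of dynein arm assembly factors 3 of 15 tested rose and 1 fell. Zmynd10, needed to assemble the arms, rose (12.7 and 12.5 CPM in Npas3-/- libraries, against 3.73 and 3.32 CPM in WT libraries; log2 fold change 1.83, and 1.09 corrected), as did Pih1d1 (log2 fold change 1.41, and 0.42 corrected), and neither passed in the corrected fit. The gene that fell in that list, Twistnb, encodes a subunit of RNA polymerase I and not a known assembly factor. Ttc12 and Wdr92 passed in the corrected fit, both higher.

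Inducers of the multiciliated state had few counts. Gmnc, which starts the multiciliated programme, had counts in 1 library only, with 12 in WT replicate 2, and Mcidas had 12 and 0 counts in Npas3-/- libraries against 0 and 20 in WT libraries. Ccno had 82 and 91 counts in Npas3-/- libraries against 57 and 102 in WT libraries. Of 21 tested regulators 1 rose and 7 fell, beside 11.6% and 21.5% of all tested genes, and 1, which fell, passed in the corrected fit, beside 3.08%. Their median log2 fold change was -0.50, and -0.55 in the corrected fit. There 0 were higher and 8 lower at an unadjusted p under 0.05 (edgeR), beside 5774 of all 18838 tested genes in either direction. The genes with the smallest p-values were Ccp110 (log2 fold change -3.52, and -1.05 corrected), which caps centrioles, Rfx4 (-2.07) and the centriole duplication kinase gene Plk4 (-3.05, and -1.19 corrected). Rfx4, an RFX factor of neural progenitors and astrocytes, had 7.29 and 5.70 CPM in Npas3-/- libraries against 24.7 and 29.8 CPM in WT libraries, and was the regulator that passed again in the corrected fit (-1.82, edgeR adjusted p = 0.0246).

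Genes shared by motile and primary cilia were counted in the same way. Of 41 genes of intraflagellar transport and the BBSome, all tested, 4 rose and 19 fell, beside 11.6% and 21.5% of all tested genes. The median log2 fold change was -1.34, and their median GC content was 46.6%. After the correction 5 rose and 2 fell, beside 5.71% and 3.08%, and the median was -0.23. Ttc21b, Ift80 and Kifap3, parts of the transport machinery and its kinesin, fell with log2 fold changes of -2.56, -2.55 and -2.03. Of these only Ttc21b passed in the corrected fit, at -1.17 (edgeR adjusted p = 0.0417). Of 32 genes of the primary cilium and its transition zone 2 rose and 9 fell, beside 11.6% and 21.5% of all tested genes. In the corrected fit 4 passed, all of them lower, beside 5.71% higher and 3.08% lower. The median log2 fold change of this list was -0.16, and 0.06 in the corrected fit. Ahi1, Arl13b and Cc2d2a, all linked to Joubert syndrome in humans, fell by 2.38, 2.86 and 2.35 on the log2 scale. All of them passed again in the corrected fit, at -1.13, -1.06 and -1.23 (edgeR adjusted p between 0.0274 and 0.0475). The edgeR fit without Npas3-/- replicate 2 cannot separate these lists from other genes, because nothing reached the threshold in it.

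Among 18 tested ependymal markers outside the symbol rule, 5 rose and 2 fell, beside 11.6% and 21.5% of all tested genes, with 1 and 1 in the corrected fit, beside 5.71% and 3.08%. This list shares Sntn, Enkur, Ccdc39, Fam183b, Spag17 and Tekt4 with the axoneme list, and S100b and Aqp4 with the astrocyte list. Sntn, a gene of the tip of motile cilia, had 0 counts in every library, and Spag17, of the central pair, had 0 and 0 in Npas3-/- libraries against 29 and 9 in WT libraries. The summed level of the list was 4872 and 5417 CPM in Npas3-/- libraries against 3925 and 3660 CPM in WT libraries, mostly from Vim, which astrocytes also express. Tm4sf1 rose (570.3 and 600.3 CPM in Npas3-/- libraries against 123 and 145 CPM in WT libraries), and passed again when corrected. Cd24a fell (58.6 and 47.0 CPM in Npas3-/- libraries against 136 and 124 CPM in WT libraries), and stood at 0.10 when corrected. In bulk RNA, a change in the number of ciliated cells and a change in the RNA of each cell cannot be told apart.

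Markers of other cell types were present at various levels. The astrocyte marker Gfap had 1871 and 1900 CPM in Npas3-/- libraries against 613 and 656 CPM in WT libraries. The 12 astrocyte markers, Gfap included, summed to 5956 and 5687 CPM in Npas3-/- libraries against 3679 and 4815 CPM in WT libraries. Without Gfap the summed levels of the genotypes overlapped. The tested astrocyte markers had a median log2 fold change of 0.05, and 0.10 in the corrected fit. Of 11 tested astrocyte markers 2 rose (Gfap and Aldoc) and 3 fell (Gja1, Aqp4 and Slc1a2), with 2 and 2 in the corrected fit and 2 and 4 by DESeq2. Choroid plexus markers summed to 33.2 and 27.5 CPM in Npas3-/- libraries against 39.7 and 41.7 CPM in WT libraries, with 0 of 10 tested past the threshold (edgeR; 0 higher and 1 lower at an unadjusted p under 0.05, and 0 higher and 1 lower called by DESeq2), and Ttr, their defining gene, was at 0 except for 12 counts in WT replicate 1. The 12 neuron markers summed to 202 and 201 CPM in Npas3-/- libraries against 312 and 171 CPM in WT libraries, with 3 of 8 tested called, all lower, Map2 among them. The sums for the other lists were 1804 and 2199 against 1645 and 1503 CPM (oligodendrocyte lineage, 1 higher and 1 lower of 9), 71.0 and 72.1 against 47.6 and 49.2 CPM (microglia, 0 of 11 by edgeR and by DESeq2 without the correction, with 2 and 3 higher at an unadjusted p under 0.05), 392 and 477 against 530.3 and 443.5 CPM (meningeal fibroblasts, 3 of 10 lower) and 28.9 and 21.5 against 40.1 and 58.7 CPM (endothelium, 2 of 9 lower), with Npas3-/- libraries before WT libraries in each. Over all 18838 tested genes, 9024 had an unadjusted p under 0.05 in edgeR without the correction and 9595 by DESeq2, in either direction. The part of cell composition in the differences of the ciliary genes was not tested.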

How the data were processed

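RNA sequencing counts of 4 cultured astrocyte samples were used, 2 Npas3-/- and 2 WT. The authors deposited raw counts per gene with Ensembl identifiers. Build mm10, HISAT2 2.1.0, Trimmomatic 0.3.8 and featureCounts are named, per the submitters' processing notes. Which annotation was counted, whether strand was used and how shared reads were treated is not given in the sources used here. Of 53379 identifiers 53274 matched GENCODE M21 (GRCm38), which gave symbols, exon lengths and transcript GC content.

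Genotypes were compared by quasi-likelihood in edgeR 4.0.16 under R 4.3.3, with TMM and filterByExpr at a minimum count of 10, over 4 samples with 2 residual degrees of freedom and Benjamini-Hochberg adjustment over 18838 genes, at a threshold of 0.05. The SE is the log2 fold change over the square root of F. The corrected fit enters, per library, natural splines (6 degrees of freedom each) in GC content and log2 length of the longest protein-coding transcript as an offset. Alternatives were median-of-ratios factors, other filters (none; a mean of 1 CPM), a replicate block, DESeq2 1.42.0, limma-voom (limma 3.58.1) and leaving out each sample. The edgeR fits were also run on simulated counts with a single dispersion for all genes. No result here rests on that simulation. Members and gene lists were chosen with earlier results of these data known. Named were the 7 members listed singly, those past the threshold in either fit, the 2 highest per role and the 3 largest folds each way, 28 in all; outside the members, the 3 smallest p-values and the most abundant gene of a list. Drc3, Rsph1, Rsph3b, Rsph6a, Cfap58, Ttc12, Wdr92, Gmnc, Mcidas, Ccno, Spag17, Ttr and Slc1a2 were added after their values were seen. The corrected result for the microglia list is not reported here.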

Additional observations from a re-analysis of the deposited data

How the results depend on the processing

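Without a correction 5 members were called higher and 10 lower. With no filter on low counts the calls were 3 and 5, with DESeq2 8 higher and 10 lower, with limma-voom 7 and 6, with median-of-ratios factors 7 and 10, and with a mean of at least 1 CPM 7 and 10. With the GC and length correction they were 4 and 1. Leaving out 1 library gave 0 to 4 higher and 0 to 10 lower, with the correction as well 0 to 3 (2 without WT replicate 2) and 0 to 1, and with DESeq2 1 to 9 (2 without Npas3-/- replicate 2) and 4 to 12; the combinations with the correction or DESeq2 were chosen after seeing the data. The replicate block gave 1 higher and 5 lower (3 and 1 with the correction). The deviations of same-numbered samples had a correlation of -0.156 over 18838 genes. With 2 libraries per genotype, crossed numbers give the same value with the opposite sign. This value therefore cannot decide whether the numbers mark a pairing. A block by crossed numbers, added after seeing the data, gave 11 and 10. Over all genes the calls were 6232, 3997 with no filter, 2560 with the block, 1656 with the correction and 8372 with DESeq2. In edgeR without the correction the calls over all genes were also fewer with any 1 library left out.

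Of 331 values of single members under these alternatives, 224 kept direction and side of the threshold, 83 lost it, 15 gained it and 9 changed sign. With the correction, without and with the block, Rfx3 stood at 0.70 and 0.74, Cfap300 at 0.050 and 0.080 and Ak7 at 0.014 and 0.011. Leaving out 1 library in turn gave -1.17 to 0.24 for Ak7 and -0.0076 to 0.88 for Ccdc153. The cause of these changes was not tested. Dnah7c, Cfap65 and Cfap73 rest on 84, 30 and 88 counts in all, in that order.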
